A study of Sus scrofa with 4 samples.

Results

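The ZNF genes are the zinc finger genes whose symbol is ZNF followed by a number. They were taken as every probe whose symbol in the platform's probe table began in that way, which gave 230 of the 43794 probes on the array, for 161 of 11938 gene symbols. Of these genes, 124 had 1 probe and 37 had more. RNA came from pools of porcine (Sus scrofa) blastocysts and was read on 4 arrays with 2 colours, each carrying 1 coculture pool and 1 control pool. Coculture blastocysts developed from cumulus-oocyte complexes, the oocyte with its surrounding cumulus cells, that matured together with luteal cells of the pig, the cells of the corpus luteum that make progesterone. Control blastocysts developed from complexes that the labels call control and describe no further. The series text gives 4 pools of 10 blastocysts from days 7 and 8, taken here as 4 for each condition, and does not say which pool is from which day or how pools relate to donors or cultures, so a p-value here reflects only how the paired pools scatter, which may be technical. Coculture RNA carried Cy5 on replicates 1 and 2 and Cy3 on replicates 3 and 4, with control RNA in the other dye. A blastocyst pool mixes trophectoderm, inner cell mass and other cells, so fewer cells of a type and less RNA per cell cannot be told apart.

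Most proteins of this family hold rows of short fingers in which pairs of cysteines and histidines grip a zinc ion, and each finger can touch a few bases of DNA. Many also carry a KRAB domain, which recruits the corepressor TRIM28 and, through it, the histone methyltransferase SETDB1. Such KRAB zinc finger proteins are known for silencing transposable elements and for keeping the methylation of imprinted regions through the early embryo in mouse and human. Others in the family activate transcription, and some act on RNA, ribosomes, the spindle or SUMO conjugation instead.

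Many ZNF probes, like many probes of the whole array, did not exceed the detection limit in blastocysts of either condition. The detection limit of a channel was set 2 SD above the mean intensity of its 153 negative-control spots. Of the 230 ZNF probes, 129 (56.1%) exceeded the limit in none of the 8 channels, against 52.1% of all probes and 47.7% of the 17891 other probes with a symbol. Only 25 (10.9%) exceeded it in all 8 channels, against 16.4% of all probes and 20.3% of the others with a symbol. By gene, 84 of 161 never exceeded the limit with any probe, 77 exceeded it in some channel, and 21 did so in all 8 channels with at least 1 probe. The same counts over all genes of the array are not given here. These shares are counts of probes that share arrays and dyes, and no test was made of them.

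**Figure D1:**
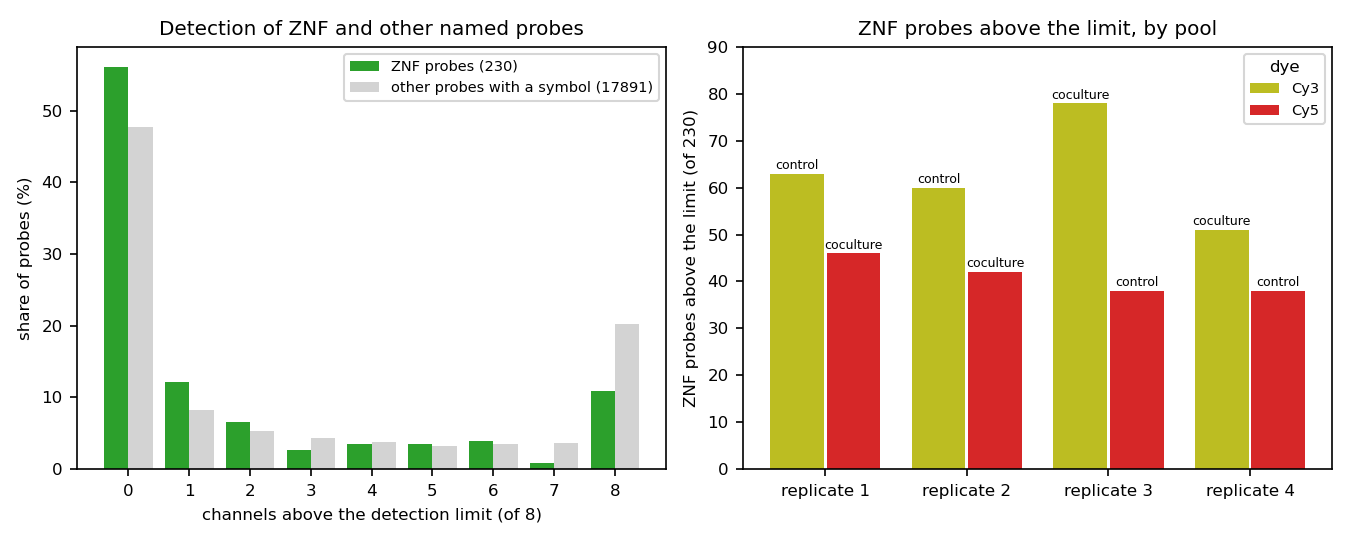
Left, share of probes (%) by the number of channels, of 8, in which they exceeded the detection limit, for the 230 ZNF probes and the 17891 other probes with a symbol; right, ZNF probes above the limit in each pool, coloured by dye and marked by condition. The ZNF probes had 56.1% in no channel and 10.9% in all 8, and on every array more of them exceeded the limit in Cy3 than in Cy5.

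On each array more ZNF probes were above the limit in Cy3 than in Cy5. In control pools it was 63 and 60 on replicates 1 and 2, where control RNA carried Cy3, and 38 and 38 on replicates 3 and 4, where it carried Cy5. In coculture pools it was 46 and 42 in Cy5 on replicates 1 and 2, and 78 and 51 in Cy3 on replicates 3 and 4. This held whichever condition the Cy3 channel carried. Over all probes the Cy3 share of 29.8% to 34.8% also lay above the Cy5 share of 23.5% to 29.2% on each array. Over the 4 arrays together, 28 ZNF probes were above the limit in all 4 coculture pools and 28 in all 4 control pools. More coculture than control pools were above the limit for 34 ZNF probes (14.8%, against 12.7% of all probes), and more control than coculture pools for 19 (8.26%, against 10.5%).

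The genes with signal above the limit in all 8 channels were ZNF3, ZNF75D, ZNF79, ZNF143, ZNF146, ZNF175, ZNF207, ZNF217, ZNF277, ZNF335, ZNF395, ZNF410, ZNF451, ZNF605, ZNF622, ZNF646, ZNF672, ZNF692, ZNF703, ZNF706 and ZNF711. They include a general activator (ZNF143), a SUMO ligase (ZNF451), and proteins of the spindle (ZNF207) and of ribosome maturation (ZNF622). Of 15 listed KRAB genes with a known part in silencing, imprinting or early development, only 7 had probes, and none was among them. Over all probes of the array 16.4% were above the limit in all 8 channels, so little can be read from that absence. Which of the genes named above carry a KRAB domain was not determined. ZNF706 had raw intensities of 30276, 22004, 27469 and 16144 in the coculture pools of replicates 1 to 4 while the control pools had 23442, 36876, 20066 and 22492, far above limits of 699 to 978. The pools of the 2 conditions overlapped over most of that range, and coculture was the brighter of the pair on replicates 1 and 3 and the dimmer on replicates 2 and 4.

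No ZNF probe passed the test of coculture against control. A probe was tested if either condition exceeded the limit on 2 or more arrays and 3 or more arrays gave a value. That left 62 ZNF probes (27.0% of 230) for 48 genes, and the other genes are described by their detection alone. Log2 ratios of coculture over control were fitted with limma, with a term for the dye, with Benjamini-Hochberg adjustment across the 15631 probes tested. The count at an adjusted p under 0.05 was 0 of 62, against a background of 0% over all probes. The smallest adjusted p of a ZNF probe was 0.629, and the count was 0 under each alternative processing run as well.

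Without adjustment, 5 ZNF probes (8.06%) had a p under 0.05, against 7.86% of all probes tested. The 2 with higher ratios in coculture made up 3.23%, against 4.16% of all probes, and the 3 with lower ratios 4.84%, against 3.70%. The ZNF share was near the background in this fit and below it under several other settings. Without replicate 1 it was 1 probe (1.64%, against 6.19% of all probes), without replicate 2 it was 2 (3.28%, against 3.90%), without replicate 3 it was 4 (6.45%, against 8.03%) and without replicate 4 it was 2 (3.28%, against 9.71%). With mean pixel intensities it was 2.63%, against 7.21%, and it was 3.23%, against 7.92%, in the authors' deposited table.

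The ratios of the ZNF genes were small and centred on 0. Over the 62 probes the median log2 ratio was 0.011, with quartiles of -0.11 and 0.15, 33 above and 29 below 0, while over all probes tested the median was 0.0018 with quartiles of -0.13 and 0.14. The median ZNF ratio was 0.033, 0.024, -0.0082 and 0.037 on replicates 1 to 4. No ZNF probe passed a fold of 1.5 in either direction, against 2.05% of all probes tested. The 95% interval, which reached a median of 0.358 to either side, lay within 2-fold for all 62 ZNF probes, as it did for 96.4% of all probes tested. Only 25 ZNF probes exceeded the limit in all 8 channels, and intensities near the negative controls limit the ratios of dim probes. The intervals therefore describe array ratios and set no bound on differences in transcript.

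**Figure D2:**
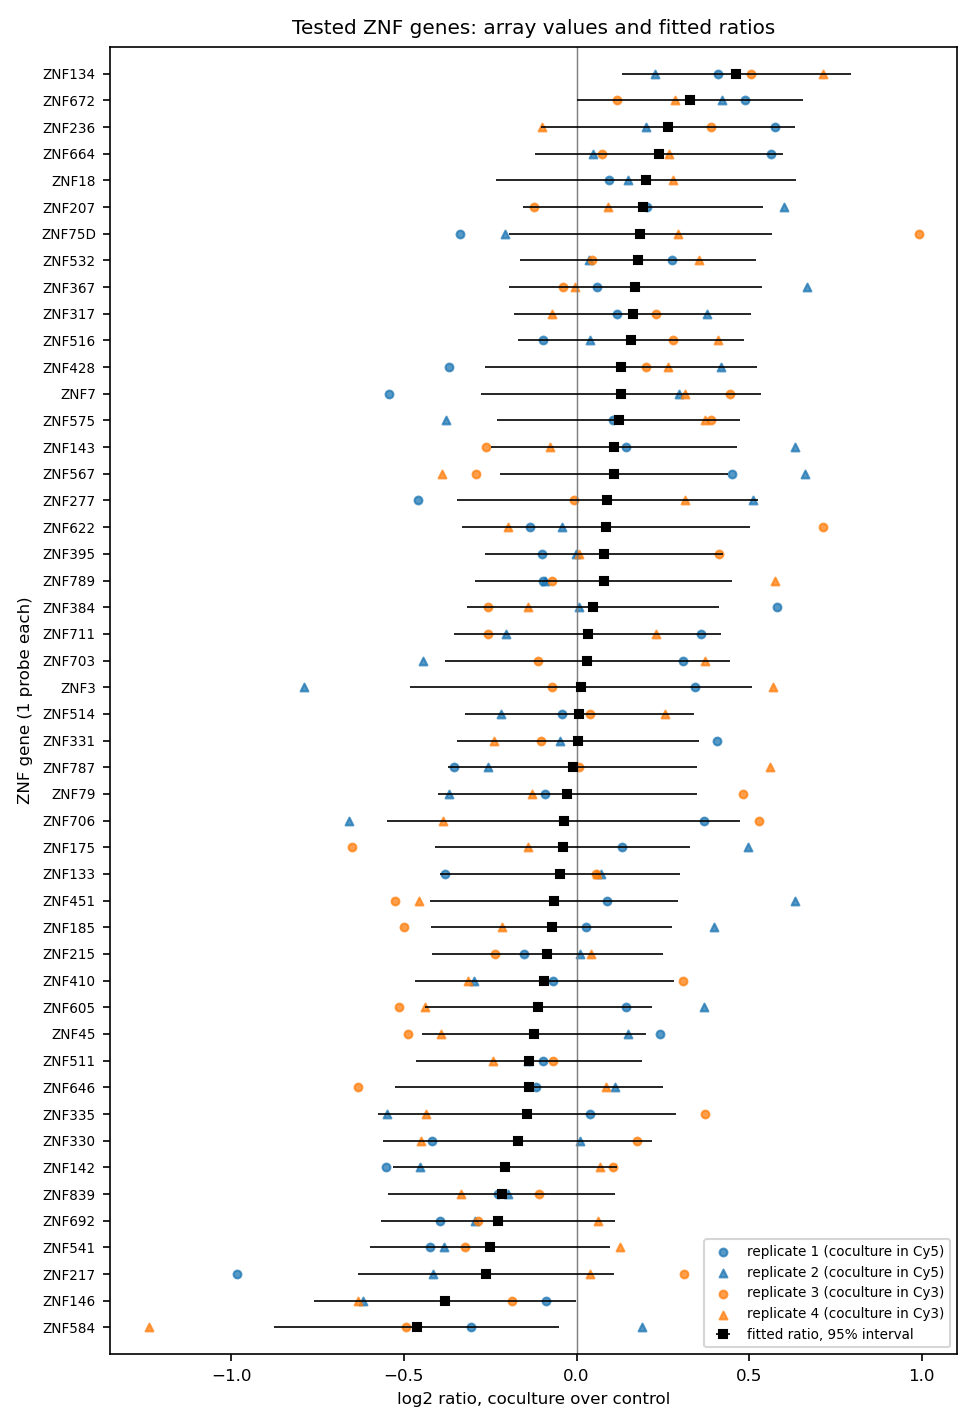
Log2 ratio of coculture over control (x axis) for the 48 tested ZNF genes, 1 probe each, ordered by the fitted ratio; squares and bars are the limma estimate with its 95% interval, and points are the 4 arrays, coloured by dye orientation. Fitted ratios run from -0.46 (ZNF584) to 0.46 (ZNF134), and the points of most genes lie on both sides of 0.

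Among ZNF genes with positive ratios, 4 were above 0 on all 4 arrays: ZNF134, ZNF672, ZNF664 and ZNF532. By probe there were 6 of 62 (9.68%), against 6.29% of all probes tested. ZNF134 had the highest ratio, with array values of 0.41, 0.23, 0.50 and 0.71 on replicates 1 to 4. All 4 pairs pointed the same way, and both values with coculture in Cy3 lay above both with coculture in Cy5. Its fitted log2 ratio was 0.46 (SE 0.14, 95% interval 0.13 to 0.80, n = 4 arrays), a 1.38-fold ratio, with a limma adjusted p of 0.629, and the ratio was 0.19 with mean pixel intensities and 0.27 when no background was removed.

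ZNF134 was a dim probe. Its raw intensities in coculture pools were 771, 946, 784 and 1154, against limits of 699, 978, 702 and 897 in those channels, so it was above the limit on 3 arrays. In control pools they were 829, 902, 786 and 726, against limits of 852, 935, 952 and 799.8, and it was above on none. It was thus tested through its coculture signal alone. With the control floored at the lowest detected signal, the fold from normalized mean signals was 1.36, close to the fitted 1.38. The floor hardly raised the control signal, so the floored fold is no lower bound on the difference. That fold leaves out the spread between arrays and holds for this background correction. The interval of the fit began at 1.09-fold.

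The other genes of that group were closer to 0. ZNF672 had array values of 0.49, 0.42, 0.12 and 0.28 and a fitted log2 ratio of 0.33 (95% interval 0.0015 to 0.66, n = 4, limma adjusted p = 0.634), and it stood at 0.086 with mean pixel intensities. Unlike ZNF134 it was above the limit in all 8 channels, with raw intensities of 905 to 1361 in coculture pools and 983 to 1131 in control pools. ZNF664 stood at 0.24 (-0.12 to 0.60) with array values of 0.56, 0.048, 0.074 and 0.27. It was above the limit on 4 coculture arrays and 1 control array, and so was tested through its coculture signal alone. ZNF532, known in human as a fusion partner of NUTM1 in NUT carcinoma, stood at 0.18 (-0.16 to 0.52) with array values of 0.28, 0.037, 0.044 and 0.36. With mean pixel intensities ZNF664 and ZNF532 stood on the other side of 0, at -0.024 and -0.034.

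Among ZNF genes with negative ratios, 3 were below 0 on all 4 arrays: ZNF146, ZNF839 and ZNF511. By probe there were 4 of 62 (6.45%), against 6.88% of all probes tested. ZNF146, whose human protein consists almost only of zinc fingers, was above the limit in all 8 channels, with raw intensities of 1160, 1258, 907 and 944 in coculture pools and 1423, 1867, 1154 and 1062 in control pools. Its array values were -0.087, -0.62, -0.19 and -0.63, with the 2 low ones on replicates 2 and 4, 1 in each dye orientation. Its fitted log2 ratio was -0.38 (95% interval -0.76 to -0.0018, n = 4, limma adjusted p = 0.634), or -0.25 without replicate 2 and -0.14 with mean pixel intensities. ZNF839 stood at -0.22 (-0.55 to 0.11) with array values of -0.23, -0.20, -0.11 and -0.33, and ZNF511 at -0.14 (-0.46 to 0.19) with values of -0.098, -0.14, -0.069 and -0.24.

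The remaining ZNF probes with an unadjusted p under 0.05 were named after their values were seen. ZNF584 had the lowest ratio of all tested ZNF genes, with array values of -0.31, 0.19, -0.49 and -1.24, so that replicate 4 stood lowest and replicate 2 on the other side of 0. It was above the limit on 1 coculture array and 3 control arrays, and so was tested through its control signal alone. Its fitted log2 ratio was -0.46 (95% interval -0.88 to -0.050, n = 4, limma adjusted p = 0.630). The other was a probe of ZNF217, described with the other probes of that gene.

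The 3 tested genes of the list of general activators stood near 0, with a median of 0.048, and 0 of 3 passed. ZNF143, which binds the promoters of small nuclear RNA genes and of many protein-coding genes, had raw intensities of 3542, 3566, 1802 and 1460 in coculture pools and 3549, 2758, 2247 and 1385 in control pools. Both conditions were brighter on replicates 1 and 2 than on replicates 3 and 4, and its log2 ratio was 0.11 (95% interval -0.25 to 0.47). ZNF384, known as a fusion partner in acute leukaemia, stood at 0.048 (-0.32 to 0.41). ZNF335, part of a histone methyltransferase complex in human, stood at -0.14 (-0.58 to 0.29), with array values of 0.038, -0.55, 0.37 and -0.44. The other listed genes on the array, ZNF76, ZNF131 and ZNF148, were above the limit in no channel.

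Of 9 listed regulators of pluripotency and development on the array, 3 were tested, with a median of 0.031, and 0 of 3 passed. ZNF217, a partner of corepressor complexes in human cells, stood at -0.26, ZNF703, a transcriptional cofactor amplified in breast cancer, at 0.031 (95% interval -0.38 to 0.44), and ZNF516, which drives brown fat genes in mouse, at 0.16 (-0.17 to 0.49). ZNF703 moved from array to array, with values of 0.31, -0.44, -0.11 and 0.37. ZNF281, which takes part in the pluripotency network of mouse embryonic stem cells, was above the limit in no channel, nor were ZNF462, ZNF503 and ZNF521. ZNF423 and ZNF750 were each above it in 1 channel.

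KRAB zinc finger genes known from silencing, imprinting or early development could not be compared. Of 15 listed genes 7 had probes, and 0 were tested. ZNF445, which protects imprinted methylation in human and mouse, was above the limit in no channel with either of its probes, and ZNF10, ZNF263, ZNF382 and ZNF496 were not above it either. ZNF568, whose mouse counterpart represses a placental transcript of Igf2, was above it in 2 channels with 1 of its 3 probes, and ZNF202 in 2 channels. A ratio between spots at the level of the negative controls says nothing about the transcript, so none is given for these genes.

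Listed genes acting on RNA, ribosomes and the spindle could be compared in part. Of 24 listed genes 9 had probes and 6 were tested. Their median was 0.024, with 3 above and 3 below 0, and 0 of 6 passed. ZNF706, whose mouse counterpart is needed for embryonic stem cells to leave self-renewal, stood at -0.037 (95% interval -0.55 to 0.47), with array values of 0.37, -0.66, 0.53 and -0.39. Those values alternate in sign within each dye orientation, and their residual SD of 0.689 was the largest among the 48 genes. ZNF622, a factor of late large-subunit maturation, stood at 0.084 (-0.33 to 0.50) by its brightest probe, or -0.14 without replicate 3. Its other tested probe, also above the limit in all 8 channels, stood at 0.23 (-0.16 to 0.63). ZNF277, which binds a protein of the small ribosomal subunit in human cells, stood at 0.089 (-0.35 to 0.53), and ZNF330, a nucleolar protein, at -0.17 (-0.56 to 0.22). The array values of ZNF330 were -0.42, 0.011, 0.17 and -0.45, and its ratio was -0.063 without replicate 1, -0.28 without replicate 2, -0.33 without replicate 3 and -0.014 without replicate 4. ZNF692 stood at -0.23 (-0.57 to 0.11) by its brightest probe, below 0 on replicates 1 to 3. Its other tested probe stood at 0.16 and was above 0 on all 4 arrays.

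ZNF207, a microtubule-binding protein that helps load the checkpoint protein BUB3 at kinetochores in human cells, had 9 probes, the most of any ZNF gene, and 5 of them were tested. The brightest had raw intensities of 6587, 6956, 6410 and 6846 in coculture pools and 6083, 5267, 7028 and 6569 in control pools. Coculture was the brighter of the pair on replicates 1, 2 and 4. Its log2 ratio was 0.19 (95% interval -0.15 to 0.54), while the other 4 probes stood at -0.11, -0.078, -0.067 and 0.13. Averaged over its 5 probes the ratio was 0.013, and 3 of the 4 others had the opposite sign to the brightest.

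**Figure D3:**
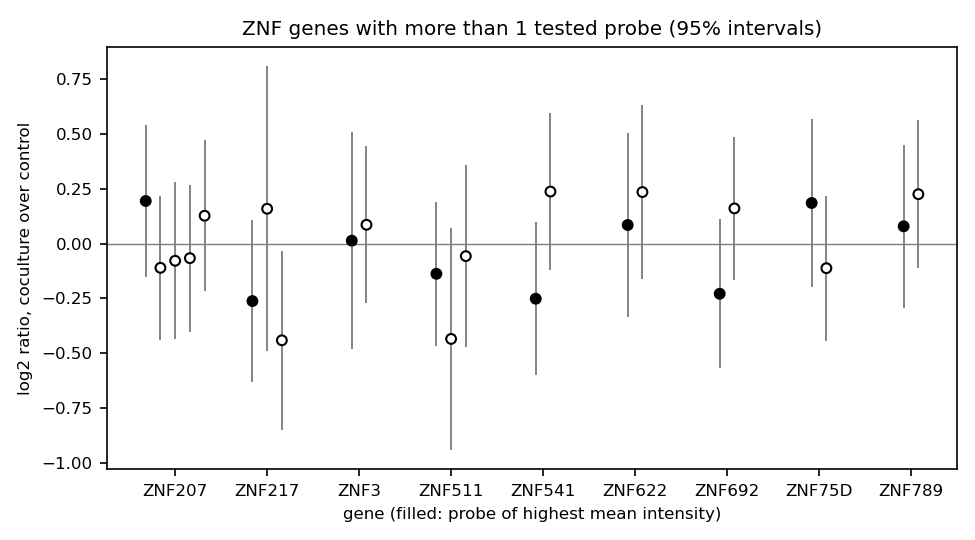
Log2 ratio of coculture over control with its 95% interval for each tested probe of the 9 ZNF genes with more than 1 tested probe; the filled point is the probe of highest mean intensity. The probes of ZNF207, ZNF217, ZNF541, ZNF692 and ZNF75D lie on both sides of 0, and no interval reaches 1 log2 unit.

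Probes of the same gene pointed to different sides for 5 of the 9 ZNF genes with more than 1 tested probe. The 3 probes of ZNF217 stood at -0.26 (95% interval -0.63 to 0.11), 0.16 (-0.49 to 0.81) and -0.44 (-0.85 to -0.032, limma adjusted p = 0.631). The last of these was below 0 on all 4 arrays, at -0.42, -0.095, -1.03 and -0.22. That probe was above the limit on 1 coculture array and 3 control arrays, and so was tested through its control signal alone. The brightest was below 0 on replicates 1 and 2, at -0.98 and -0.42, and above 0 on replicates 3 and 4, at 0.31 and 0.038. ZNF541, needed for meiosis in male mice, stood at -0.25 (-0.60 to 0.10) by its brighter probe and 0.24 (-0.12 to 0.59) by the other, and ZNF692 at -0.23 and 0.16 (-0.17 to 0.49). ZNF75D stood at 0.18 and -0.11. The dimmer tested probe of ZNF541 was above the limit on 2 coculture arrays and 0 control arrays. That of ZNF75D was above it on 0 coculture arrays and 2 control arrays. The 3 probes of ZNF511 lay on 1 side, at -0.14, -0.43 and -0.057. The table used for names does not say which transcripts each probe reads.

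Among ZNF probes, as among all probes tested, more changed sign with the dye orientation than kept 1 sign throughout. On 18 of 62 probes (29.0%) the ratio had 1 sign on both arrays of 1 orientation and the other sign on both arrays of the other, against 20.2% of all probes tested, while 10 of 62 (16.1%) had 1 sign on all 4 arrays, against 13.2% of all probes tested. Mean ratios in the 2 orientations had opposite signs for 33 of 62 probes (53.2%), against 54.7% of all probes tested. Across the ZNF probes the correlation of ratios was 0.083 between replicates 1 and 2 and 0.261 between replicates 3 and 4, and -0.157 to -0.027 between arrays of different orientation. Over all probes tested these were 0.204 and 0.167 within and -0.191 to -0.027 between orientations. The points share arrays, pools and dyes, and the values are given as a description.

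**Figure D4:**
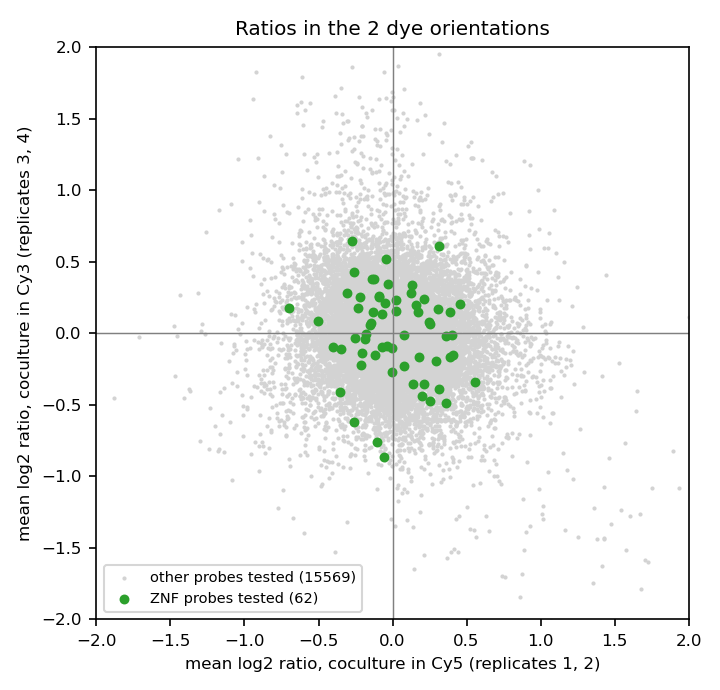
Mean log2 ratio of coculture over control on the arrays with coculture in Cy5 (x axis) and on those with coculture in Cy3 (y axis), for the 62 tested ZNF probes over the 15569 other probes tested (13 of these lie outside the axes). The ZNF points spread over all 4 quadrants, 13 with both means above 0 and 16 with both below.

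ZNF75D and ZNF567 had the widest gaps between orientations. ZNF75D had array values of -0.34 and -0.21 with coculture in Cy5 and 0.99 and 0.29 with coculture in Cy3. ZNF567 had 0.45 and 0.66 against -0.29 and -0.39. The fit's dye term takes up such a gap, and it did not pass for any of the 48 genes: the smallest adjusted p of that term was 0.340. The same pattern of signs was seen for ZNF451, with 0.089 and 0.63 against -0.53 and -0.46, and for ZNF605, with 0.14 and 0.37 against -0.52 and -0.44.

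The genes with smallest residual SD among those above the limit in all 8 channels were ZNF672 (0.090), ZNF605 (0.119) and ZNF692 (0.182), on the log2 scale. For ZNF605 the small residual stands beside an orientation gap of 0.73. Other genes above the limit in 1 condition alone were ZNF142 and ZNF367. ZNF142 was above it on 2 control arrays and no coculture array, and ZNF367 on 2 coculture arrays and no control array. Each was thus tested through the signal of that condition alone. Crossing the limit in 1 condition does not show absence from the other. ZNF142 stood at -0.21 (95% interval -0.53 to 0.12, n = 4, limma adjusted p = 0.739), with -0.55 and -0.45 on the 2 arrays with control in Cy3, where it was above the limit. On the 2 arrays with control in Cy5 it had the other sign, at 0.11 and 0.067. Both of its detections were in Cy3, the dye with more ZNF probes above the limit on every array. ZNF367 stood at 0.17 (-0.20 to 0.54), most of it from 0.67 on replicate 2. For both genes the dim condition's mean signal was not raised by the floor, so no floored fold is given.

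Neighbouring ZNF genes were read from the order of protein-coding genes in RefSeq's table of assembly Sscrofa11.1, which placed 159 of the 161 genes. Of these, 53 had another ZNF gene directly beside them. Of the 53, 31 (58.5%) were above the limit in no channel and 13 were tested, while of the 106 others 52 (49.1%) were above it in none and 34 were tested. The longest run held 5 ZNF genes, and in the run of ZNF10, ZNF891, ZNF140, ZNF84 and ZNF605 only ZNF605 was tested, the first 3 being above the limit in no channel and ZNF84 having no probe named here. ZNF236 and ZNF516, which lie beside each other, stood at 0.27 and 0.16, and the neighbours ZNF692 and ZNF672 at -0.23 and 0.33. These are counts with no test.

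None of the tested partners of KRAB zinc finger proteins passed. TRIM28 itself was not among the genes tested, so nothing is said of its ratio here. Of 30 listed genes 17 were tested, 8 above and 9 below 0, with a median log2 ratio of -0.011, and by probe 1 of 25 (4%) had an unadjusted p under 0.05, against 7.86% of all probes tested. That was a probe of KDM1A at -0.47, above the limit in 2 channels, while the other 2 tested probes of KDM1A stood at -0.024 and 0.16. SETDB1, the methyltransferase recruited by TRIM28, stood at -0.26 (95% interval -0.65 to 0.12), and CBX3, a reader of the mark it lays down, at 0.26 (-0.16 to 0.67). Both were above the limit in all 8 channels. The zinc finger genes named ZFP, ZSCAN, ZKSCAN, ZBTB, PRDM or KLF had 21 tested genes with a median of -0.023, 10 above and 11 below 0. By probe 4 of 25 (16%), those of KLF16, ZBTB6, ZFP36L1 and ZKSCAN1, had an unadjusted p under 0.05, against 7.86% of all probes tested, and 0 an adjusted p under 0.05. ZFP42, the pluripotency marker REX1, stood at -0.087 (-0.43 to 0.26) and was above the limit in all 8 channels.

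For the whole series, median probe intensities were 585 to 840, over median local backgrounds of 84 to 156, and negative-control medians of 591 to 817 were close to those of the probes. Of 9 trophectoderm markers on the array, 6 were above the limit in all 8 channels, among them GATA2, GATA3, KRT8 and KRT18, and so was POU5F1, the marker of the pluripotent cells. Of 9 markers of granulosa, cumulus and luteal cells on the array, 0 were above it in all 8 channels, but only 2 were above it in no channel. The primitive endoderm marker GATA6 and the oocyte marker ZP2 were above it in all 8. Log2 ratios ran from -0.48 to 0.15 over 16 trophectoderm probes (median -0.17) and from -0.044 to 0.26 over 5 granulosa, cumulus and luteal probes (median 0.21). The 2 epiblast probes stood at -0.38 and -0.22, the primitive endoderm probe at 0.34, and 4 oocyte probes from -0.38 to 0.059. The part of these cells in the ZNF ratios was not tested. No ZNF spot was saturated, and 0 to 3 ZNF spots per array were left out by the image quantification, 1 of them that of ZNF18 on replicate 3, whose ratio of 0.20 (95% interval -0.23 to 0.63) rests on 3 arrays.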

How the data were processed

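The authors' deposited scanner tables give, per spot and dye, median and mean pixel intensity and local background intensity on a linear scale up to 65535; sources used here do not name the quantification software. A deposited log2 table by the authors followed Cy5 over Cy3 ratios of background-subtracted, loess and quantile normalized scanner values with correlations of 0.968 to 0.981 and column medians of -0.017 to -0.0004; its exact centring stays unknown. Limma was used, per the submitters' processing notes. Here median intensities were corrected with normexp (offset 50), normalized by loess with control spots at weight 0 and fitted with lmFit and eBayes (limma 3.58.1, R 4.3.3) with a coculture and a dye term, leaving 2 residual degrees of freedom. The 74 to 150 spots per array that carried the file's ignore mark were emptied. The code was tested on simulated data. All 161 ZNF symbols were current in RefSeq (Sscrofa11.1, names and gene order only). A gene is represented by its tested probe of highest mean intensity.

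Genes named were: among tested genes, up to 8 per direction with smallest p and 1 sign on all 4 arrays; the tested genes of the role lists; up to 6 above the limit in 1 condition only; the 4 widest opposite gaps between dye orientations; the 3 smallest residual SDs; and the 3 genes whose probes differ most. Members and lists were chosen with earlier results of these data known. The number of arrays limits the precision.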

Additional observations from a re-analysis of the deposited data

Results flagged for a closer look

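ZNF367 was singled out because its ratio on replicate 2, 0.666, lay far from the other 3 arrays, which stood at 0.059, -0.039 and -0.0054; such a gap is seen in about 1 in 20 groups by chance.

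For 9 named ZNF genes both arrays of 1 dye orientation moved one way and both of the other orientation the opposite way. The difference of mean log2 ratios, coculture in Cy5 minus coculture in Cy3, was -0.915 for ZNF75D, -0.874 for ZNF217 and -0.589 for ZNF142. It was 0.897 for ZNF567, 0.852 for ZNF451, 0.732 for ZNF605, 0.557 for ZNF143, 0.492 for ZNF384 and 0.385 for ZNF367. The dye term of the limma fit tests this difference, and its adjusted p ran from 0.340 to 0.658 over these 9 genes, so none passed. Over all 48 tested ZNF genes 15 showed this pattern of signs and 7 had 1 sign on all 4 arrays. By probe the pattern held for 29.0% of ZNF probes, against 20.2% of all probes tested, and 1 sign for 16.1%, against 13.2%. The dye and the set of pools change together between the orientations and cannot be told apart.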

How the results depend on the processing

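No ZNF probe had an adjusted p under 0.05 under any alternative run. The count at an unadjusted p under 0.05, 5 as reported, was 3 without background correction (4.84%, against 8.16% of all probes). It was 2 with plain background subtraction (3.23%, against 7.86%), mean pixel intensities (2.63%, against 7.21%), median centring (3.23%, against 5.74%), the limit at 3 SD (4.08%, against 8.21%), no dye term (3.23%, against 5.21%), the authors' table (3.23%, against 7.92%) or probes above the limit in all 8 channels alone (8%, against 8.93%). It was 12 of 229 probes without a filter (5.24%, against 6.02%), 6 of 61 with separate channels (9.84%, against 12.2%) and 1 to 4 when a replicate was left out. The median ratio was -0.067 with median centring, where the median of all probes also stood at -0.067, -0.037 for probes above the limit in all 8 channels, and -0.013 to 0.048 when a replicate was left out. Probes above the limit numbered 101 when 1 array sufficed and 31 when all 4 were needed. The cause of these shifts was not tested, apart from the smaller or larger sets of probes. Aquantile normalization leaves ratios as they are. Signs turned with mean pixel intensities for ZNF664 (-0.024), ZNF532 (-0.034), ZNF451 (0.054), ZNF384 (-0.085), ZNF703 (-0.10), ZNF207 (-0.039) and ZNF277 (-0.055). With median centring they turned for ZNF703 (-0.067), ZNF622 (-0.0023) and ZNF277 (-0.0028). Over the fits without 1 replicate the sign turned for ZNF451 (-0.20 to 0.071), ZNF384 (-0.096 to 0.19), ZNF703 (-0.16 to 0.22), ZNF143 (-0.013 to 0.23), ZNF335 (-0.35 to 0.058), ZNF706 (-0.29 to 0.22), ZNF277 (-0.15 to 0.33) and ZNF622 (-0.14 to 0.31). Each array holds a pair of pools, so the ratios fitted are paired within the array. Intensities near the negative controls limit the ratios of dim ZNF probes.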
